A study of Mus musculus with 29 samples.

Results

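The 10 genes described here are Pou5f1, Nanog, Sox2, Utf1, Dppa2, Dppa4, Dppa3, Tdh, Prdm14 and Tfap2c, a set known for its expression in primordial germ cells and pluripotent cells. They were taken as a list of names, chosen with earlier results of these data known, and all 10 were found among the 51912 gene identifiers of a table of RNA sequencing counts from mouse ovaries. The table held 29 libraries of total RNA from dissociated ovary cells, in 8 groups. Wild-type mice (Cdkn1b +/+) and mice without Cdkn1b (Cdkn1b -/-, called Cdkn1b-null here) were sampled before birth on embryonic days 13.5 and 18.5 (E13.5 and E18.5) and after it on day 8 (PND8) and at 12 weeks of age (12wk). Each wild-type group held 4 libraries. The Cdkn1b-null group of E18.5 also held 4, and the other Cdkn1b-null groups held 3. The labels give no strain, no design of the null allele and no number of animals behind a library, so a p-value here measures the spread between these libraries, which may be partly technical.

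Primordial germ cells are the embryonic precursors of oocytes and sperm. They express much of the gene network that keeps embryonic stem cells pluripotent, and this network is known to be turned off as germ cells of the fetal ovary enter meiosis. Some of its genes, Pou5f1 and Dppa3 among them, are known to be transcribed again in growing oocytes. Cdkn1b encodes the cyclin-dependent kinase inhibitor p27, and the study asked how cell cycle regulation bears on the developing ovary.

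Totals were 14.1 to 24.9 M counts in the fetal libraries and 24.1 to 48.2 M in the postnatal ones. The column names hold the word combined, and only those of the fetal libraries carry the letters OC. They do not say whether fetal and postnatal libraries were processed together. If they were not, that difference and age cannot be told apart in the step from E18.5 to PND8. Levels are counts scaled to library size (counts per 1 M, CPM), adjusted by TMM (trimmed mean of M values) over the 29 libraries. A level that 3 counts give, called the floor, lay between 0.0693 and 0.231 CPM depending on the library, and it covers counting error only. Cdkn1b was lower in every Cdkn1b-null library than in every wild-type library of its age, at 4.29 to 4.75 against 19.1 to 26.1 CPM at E13.5 and at 65.0 to 79.8 against 133 to 173 CPM at PND8. The ovary label was checked with 8 pregranulosa cell genes (Foxl2 and Wt1 among them), which summed to 677 to 1204 CPM at E13.5, and with 7 germ cell markers, which summed to 337 to 1183 CPM. The share of haemoglobin transcripts was 18.97% in wild-type replicate 3 of E13.5 and 0.7014% to 1.048% in the remaining 6 libraries of that age. In bulk ovary RNA, fewer germ cells and less RNA per germ cell cannot be told apart.

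RefSeq promoters on GRCm38.p6 were matched for 4 of the 10 genes, and the 250 bases before each start are shown because 3 of these genes fell together after E13.5 and stayed low, while Pou5f1 alone rose again. Positions are counted upstream of the start. Capitals mark an octamer-SOX composite in Nanog, GC boxes in Utf1 and Sox2, and in Pou5f1 a GC box followed by the letters AGGTCA. Starts are those of RefSeq, and for Pou5f1, Utf1 and Sox2 they differ from the starts of the GENCODE gene positions given further on.
Nanog, chr6:122707239-122707488, plus strand: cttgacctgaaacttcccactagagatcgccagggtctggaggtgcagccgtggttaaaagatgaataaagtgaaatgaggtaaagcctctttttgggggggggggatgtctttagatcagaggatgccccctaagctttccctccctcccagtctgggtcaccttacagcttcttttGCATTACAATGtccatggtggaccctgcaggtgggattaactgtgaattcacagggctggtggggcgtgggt
Pou5f1, chr17:35505782-35506031, plus strand: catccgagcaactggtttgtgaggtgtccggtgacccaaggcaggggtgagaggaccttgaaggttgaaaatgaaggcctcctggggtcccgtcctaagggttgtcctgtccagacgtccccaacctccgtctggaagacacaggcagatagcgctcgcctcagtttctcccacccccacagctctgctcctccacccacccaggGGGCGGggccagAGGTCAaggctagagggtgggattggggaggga
Utf1, chr7:139943606-139943855, plus strand: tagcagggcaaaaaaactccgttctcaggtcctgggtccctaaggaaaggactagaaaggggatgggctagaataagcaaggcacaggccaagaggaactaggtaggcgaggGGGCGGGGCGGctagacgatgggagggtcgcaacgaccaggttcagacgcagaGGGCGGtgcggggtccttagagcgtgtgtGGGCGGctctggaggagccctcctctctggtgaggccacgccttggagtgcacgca
Sox2, chr3:34649745-34649994, plus strand: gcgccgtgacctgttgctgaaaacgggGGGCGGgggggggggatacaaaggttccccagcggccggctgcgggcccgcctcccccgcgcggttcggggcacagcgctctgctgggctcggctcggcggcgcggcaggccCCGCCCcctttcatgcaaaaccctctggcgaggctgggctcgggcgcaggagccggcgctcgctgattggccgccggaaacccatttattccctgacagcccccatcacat

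Motifs were searched as letters on both strands. The composite, with any base allowed at the fifth letter, lay at bases 72 to 62 upstream of the Nanog start and was found in 19 of 32851 promoters of the same length (0.0578%). The GC box GGGCGG was found in 32.7% of promoters. It lay at bases 45 to 40 upstream of Pou5f1, at 4 places upstream of Utf1, a pair of which share a base, and at 2 places upstream of Sox2. The motif AGGTCA, found in 14.0% of promoters, lay at bases 33 to 28 upstream of Pou5f1 and, on the other strand and in lower case above, near the far end of the Nanog and Sox2 windows. CpG dinucleotides numbered 3 in the Nanog window, 8 in Pou5f1, 14 in Utf1 and 27 in Sox2, against a median of 6 over all promoters. A match of letters is a description and not a binding site.

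At E13.5 all 10 genes lay above the floor in every library of both genotypes, and together they gave a summed mean of 492 CPM in wild-type and 481 CPM in Cdkn1b-null ovaries. Among the core pluripotency factors, Pou5f1, the POU-domain factor OCT4, measured 70.6, 48.6, 88.6 and 44.3 CPM in wild-type replicates 1 to 4, and 47.9, 58.0 and 75.4 CPM in Cdkn1b-null replicates 1, 3 and 4. Nanog, a homeodomain factor, measured 15.8, 12.8, 18.3 and 14.4 CPM in wild type and 9.32, 7.40 and 19.8 CPM in Cdkn1b-null ovaries. Sox2, the HMG-box partner of OCT4, was the lowest of the set, at 3.01, 2.18, 4.78 and 2.16 CPM in wild type and 1.96, 1.32 and 2.18 CPM in Cdkn1b-null ovaries. The ranges of the genotypes overlapped for all of these, and for Nanog the Cdkn1b-null libraries held both the lowest and the highest value.

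Prdm14 and Tfap2c encode factors required to specify primordial germ cells. Prdm14 averaged 7.47 ± 2.11 CPM in wild-type (SD, n = 4) and 5.85 ± 2.16 CPM in Cdkn1b-null ovaries (n = 3). Tfap2c averaged 40.0 ± 12.1 CPM (n = 4) and 33.6 ± 8.99 CPM (n = 3). Utf1, a chromatin-bound protein of pluripotent cells, averaged 77.9 ± 21.0 CPM (n = 4) and 61.0 ± 16.2 CPM (n = 3). Dppa2 and Dppa4 encode SAP-domain proteins that bind chromatin together, and the genes lie 9670 bases apart on chromosome 16. Dppa2 averaged 16.4 ± 1.55 CPM (n = 4) and 14.4 ± 7.28 CPM (n = 3), and Dppa4 36.5 ± 7.97 CPM and 35.8 ± 18.3 CPM. Tdh, threonine dehydrogenase, a mitochondrial enzyme of pluripotent mouse cells, averaged 38.1 ± 5.62 CPM (n = 4) and 36.6 ± 9.91 CPM (n = 3).

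Dppa3, also known as Stella or PGC7, protects methylation in the early embryo and was the most abundant of the set. It measured 186, 169, 243 and 181 CPM in wild-type replicates 1 to 4 and 113, 197 and 348 CPM in Cdkn1b-null replicates 1, 3 and 4. Per kilobase of annotated exon, wild-type Dppa3 reached 218 ± 36.9 CPM per kb (SD, n = 4), and its lowest library lay above the highest library of the next gene, Utf1, at 63.5 ± 17.1 CPM per kb. Pou5f1 followed at 28.0 ± 9.14 and Dppa4 at 22.0 ± 4.79 CPM per kb, with overlapping ranges. Tdh, Tfap2c, Nanog and Dppa2, from 14.6 ± 2.15 down to 6.71 ± 0.631 CPM per kb, each overlapped the next in that order. Prdm14 at 2.91 ± 0.823 and Sox2 at 1.47 ± 0.597 CPM per kb closed the order with ranges that overlapped. In Cdkn1b-null ovaries the order was the same except that Dppa2 and Nanog, whose ranges overlapped, changed places.

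**Figure D1:**
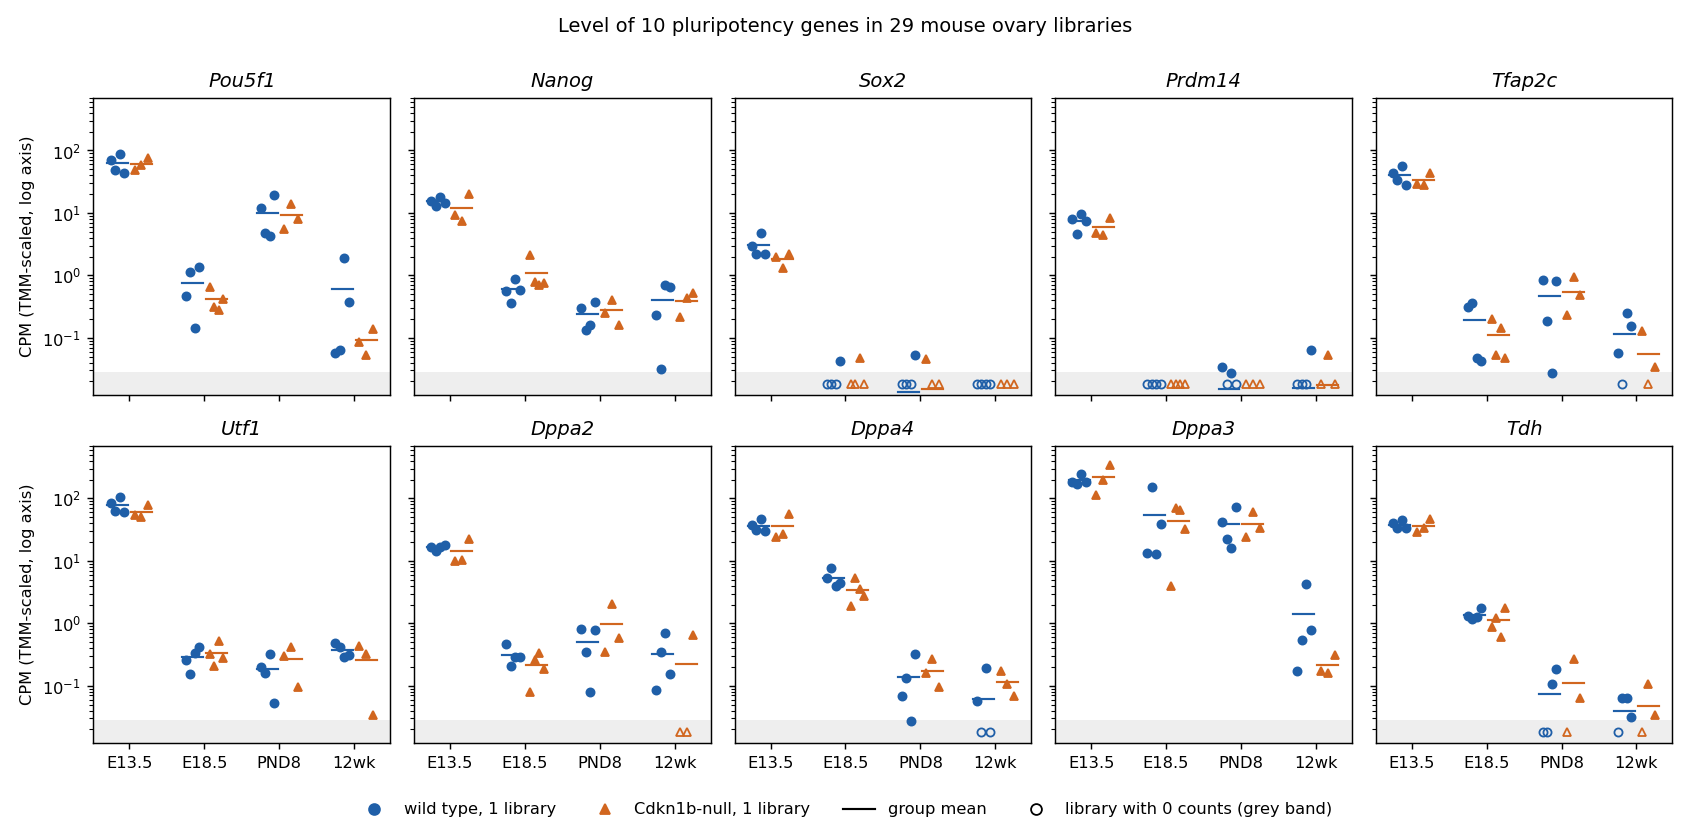
CPM of each of the 10 genes in each of the 29 libraries by age, on a log axis, with wild-type libraries as circles, Cdkn1b-null libraries as triangles, bars for group means that lie within the axis, and open symbols in the grey band for libraries with 0 counts. All 10 genes have their highest group means at E13.5. At E18.5 Dppa3 still averages 55.1 CPM in wild-type and 42.8 CPM in Cdkn1b-null ovaries, and Dppa4 5.34 and 3.37 CPM. Pou5f1 is higher at PND8 than at E18.5, and at PND8 only Pou5f1 and Dppa3 have group means above 1 CPM.

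The 10 genes did not differ between the genotypes at E13.5 by more than the spread between libraries. None of the 10 was called (edgeR quasi-likelihood, Benjamini-Hochberg adjusted p from 0.989 to 0.994), none had an unadjusted p under 0.05, and DESeq2 called none. Over all 16508 genes tested, 0.00606% were called, which is 1 gene. The median log2 fold change of the 10, Cdkn1b-null over wild type, was -0.26, against -0.01 over all genes tested. Sox2 had the largest estimate, -0.77 (95% interval -1.75 to 0.20), and Nanog the interval -1.14 to 0.41 around -0.37. The narrowest interval was that of Tdh, from -0.57 to 0.37. The signs of the small estimates for Pou5f1, Dppa4, Dppa3 and Tdh turned when single libraries were left out.

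**Figure D2:**
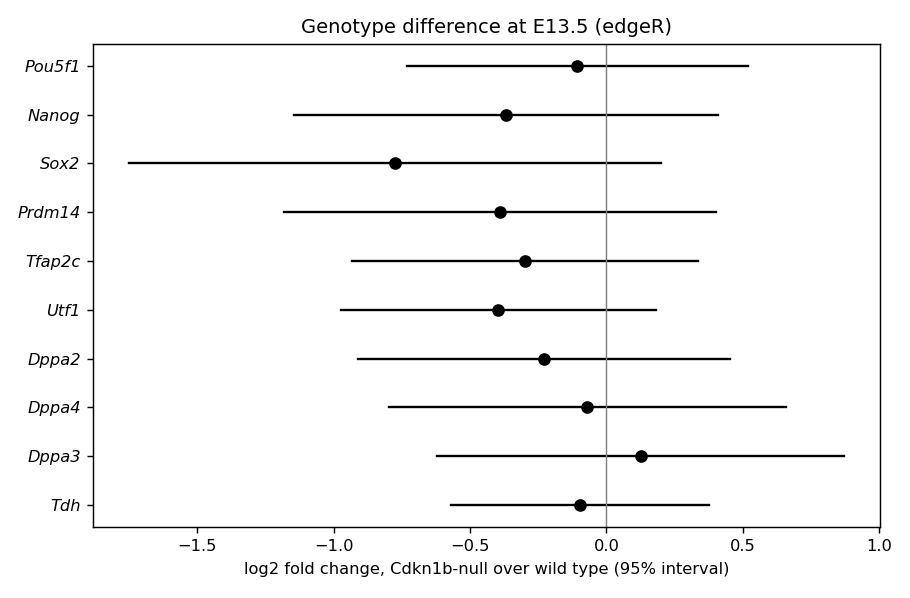
Log2 fold change of each of the 10 genes in Cdkn1b-null over wild-type ovaries at E13.5, as a point with its 95% interval (edgeR, 4 wild-type and 3 Cdkn1b-null libraries). Every interval includes 0, and that of Sox2 reaches from -1.75 to 0.20.

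The Cdkn1b-null replicate 3 of E13.5 stood apart once the 10 genes were set against germ cell markers. Its 10 meiotic entry genes summed to 801 CPM, against 130 to 229 CPM in the other 6 libraries. Sycp3, an axis protein of meiotic chromosomes, measured 95.6 CPM there and 9.32 to 25.1 CPM in the others. Stra8, a gene of meiotic entry picked after its values were seen, measured 75.3 CPM there and 2.58 to 10.9 CPM in the others. Divided by Dazl, an RNA-binding protein of germ cells, all 10 genes had their lowest ratio in this library, and the same held for all 10 when they were divided by Ddx4, the germ cell helicase. The divisors themselves were highest there: Dazl was 367 CPM, against 126 to 262 CPM in the other 6 libraries, and Ddx4 was 223 CPM, against 72.1 to 149 CPM. The low ratios hold this rise of the divisor as well as the levels of the 10 genes.

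The ratio of Nanog to Dazl was 0.0201 in that library and 0.0671 to 0.0812 in the other 6. Prdm14 to Dazl was 0.0121 against 0.0296 to 0.0406. Sox2 to Dazl was 0.00360 against 0.00832 to 0.0185. The gap was smaller for Pou5f1, at 0.158 against 0.207 to 0.381. Dppa3 lay between, at 0.537 against 0.843 to 1.33. Undivided, 5 of the 10 genes (Nanog, Sox2, Utf1, Prdm14 and Tfap2c) were lowest in this library. Another 4 were lowest in Cdkn1b-null replicate 1, and 1 in wild-type replicate 4. The share of all genes lowest in each library was not counted. The Dppa3 level of Cdkn1b-null replicate 3, 197 CPM, lay inside the range of the others. The same library carried 1.21 CPM summed over 4 Y-linked genes, against 0 to 0.231 CPM in the others, and 31.2 CPM over 4 keratinocyte genes, against 6.28 to 28.3 CPM. The part of either in these ratios was not tested. Without this library the genotype comparison still called none of the 10 genes.

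**Figure D3:**
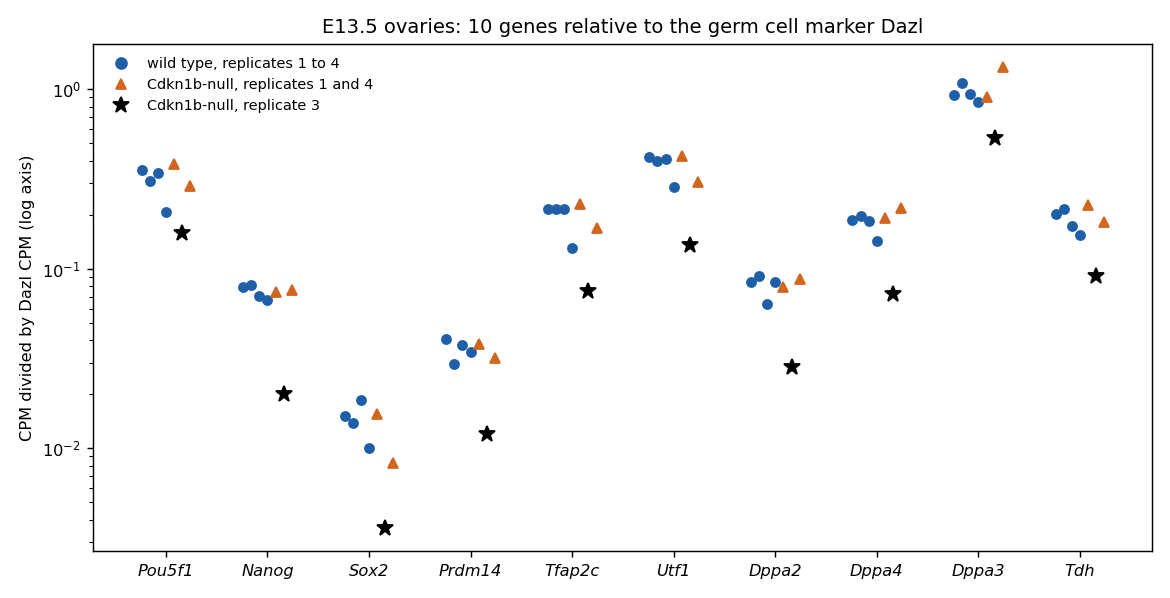
CPM of each of the 10 genes divided by the CPM of Dazl in the same library, on a log axis, for the 7 libraries of E13.5, with the Cdkn1b-null replicate 3 as a star. The star is the lowest point for all 10 genes, in the library with the highest Dazl (367 CPM), for example 0.0201 for Nanog against 0.0671 to 0.0812 in the other 6 libraries.

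Sox2 is also expressed in peripheral glia. At E13.5 the highest Sox2 levels, 4.78 and 3.01 CPM, came from wild-type replicates 3 and 1. Sox10, a transcription factor of glia picked after its values were seen, measured 7.32 and 3.37 CPM in those replicates and 0 to 0.617 CPM in the other 5 libraries. The part of glia in the Sox2 level was not tested. At E18.5 Sox2 had at most 1 count in any library.

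Between E13.5 and E18.5, 9 of the 10 genes fell in wild-type ovaries and the same 9 fell in Cdkn1b-null ovaries (edgeR, quasi-likelihood test, adjusted p under 0.05). Over all genes tested, 34.0% were called in wild type (17.5% lower) and 30.2% in Cdkn1b-null ovaries (14.5% lower). Most of the 10 passed the filter on low counts through their E13.5 level, so the direction of their change was partly fixed by the filter, and the count is given as a description. The gene not called was Dppa3. The median log2 fold change of the 10 was -6.02 in wild type and -6.36 in Cdkn1b-null ovaries, against 0.01 and 0.02 over all genes tested.

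What remained at E18.5 differed widely among the genes. Prdm14 had 0 counts in all 8 libraries of E18.5, which puts its E13.5 level at least 51.6-fold higher in wild-type and at least 41.8-fold higher in Cdkn1b-null ovaries, against a floor of 3 counts per library. Sox2 had 1 count in each genotype, after 216 counts in wild-type and 107 in Cdkn1b-null ovaries at E13.5. Its ratio was 239 in wild type (95% counting interval 42.5 to 9490) and 152 in Cdkn1b-null ovaries (26.7 to 6065).

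Utf1 fell from 77.9 to 0.292 ± 0.113 CPM in wild type (SD, n = 4; log2 fold change -8.02, SE 0.32, edgeR adjusted p 7.58e-07) and from 61.0 to 0.333 ± 0.133 CPM in Cdkn1b-null ovaries (-7.46, SE 0.28, adjusted p 3.52e-06). Tfap2c fell to 0.189 ± 0.168 and 0.1103 ± 0.0739 CPM (n = 4 each; log2 fold changes -7.75 and -8.09). These were 0.473% and 0.329% of the E13.5 means. Pou5f1 measured 0.464, 1.13, 0.145 and 1.34 CPM in wild-type replicates 1 to 4 of E18.5, and 0.640, 0.314, 0.284 and 0.424 CPM in Cdkn1b-null replicates 1 to 4. Its log2 fold changes were -6.34 (SE 0.51, edgeR adjusted p 3.10e-05) and -7.11 (SE 0.27, adjusted p 3.52e-06). Every E18.5 library lay below every E13.5 library for all 10 genes in wild type and for all 10 in Cdkn1b-null ovaries. The share of all genes with such a separation was not counted, so this is a description. Most of the 10 also passed the filter on low counts through E13.5.

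Dppa2 kept 1.91% and 1.49% of its E13.5 mean (log2 fold changes -5.70 and -6.03). Tdh kept 3.59% and 3.07% (-4.80 and -5.00), with 1.18 to 1.75 CPM in wild type and 0.615 to 1.79 CPM in Cdkn1b-null ovaries. Nanog kept 3.89% in wild type, at 0.568, 0.358, 0.868 and 0.585 CPM in replicates 1 to 4, and 8.97% in Cdkn1b-null ovaries, at 2.12, 0.784, 0.709 and 0.754 CPM. Its log2 fold changes were -4.68 (SE 0.30, edgeR adjusted p 1.02e-05) and -3.43 (SE 0.49, adjusted p 0.00158). Dppa4 fell more gradually than its neighbour Dppa2, to 5.34 ± 1.64 CPM in wild type and 3.37 ± 1.44 CPM in Cdkn1b-null ovaries (n = 4 each), 14.6% and 9.40% of the E13.5 means. Its log2 fold changes were -2.78 (SE 0.26, edgeR adjusted p 5.15e-05) and -3.39 (SE 0.41, adjusted p 0.00101). The difference in slope between Dppa4 and Dppa2 was not tested.

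Dppa3 was not called between E13.5 and E18.5. In E18.5 wild-type replicates 1 to 4 it measured 13.4, 155, 13.1 and 39.4 CPM, and in Cdkn1b-null replicates 1 to 4 it measured 4.00, 70.3, 64.6 and 32.4 CPM. The libraries of each genotype spread widely, and the genotypes overlapped. The log2 fold change from E13.5 was -1.83 in wild type (SE 0.79, edgeR adjusted p 0.112) and -2.33 in Cdkn1b-null ovaries (SE 0.89, adjusted p 0.1004). Without wild-type replicate 2 of E18.5 it was -3.16 (edgeR adjusted p 0.00133), and without Cdkn1b-null replicate 1 it was -1.95 (adjusted p 0.0260). DESeq2 gave an adjusted p of 0.0390 in Cdkn1b-null ovaries.

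**Figure D4:**
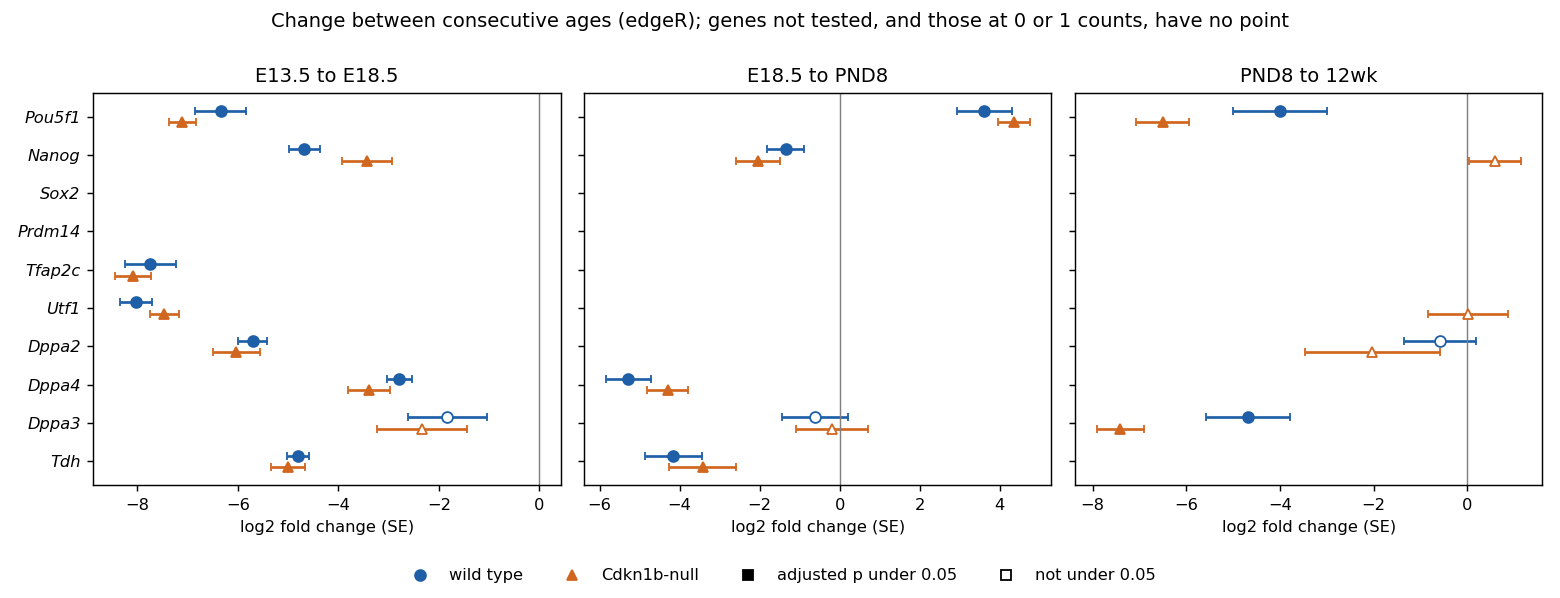
Log2 fold change between consecutive ages with its SE (edgeR), wild type as circles and Cdkn1b-null as triangles, filled where the adjusted p was under 0.05. Points left of 0 are lower at the later age. Nanog, Tdh and Dppa4 fell at both of the first steps, Pou5f1 fell, rose and fell, and Dppa3 has open symbols until the last step.

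Germ cell markers were still detected in the same E18.5 libraries, and they changed in either direction. Ddx4 measured 96.6 to 125 CPM at E13.5 and 32.9 to 54.1 CPM at E18.5 in wild type. In Cdkn1b-null ovaries Ddx4 measured 72.1 to 223 CPM and 24.0 to 38.95 CPM, and it was called lower in both genotypes. Dazl measured 76.7 to 201 CPM in wild-type and 60.5 to 132 CPM in Cdkn1b-null ovaries of E18.5, and its change from E13.5 was -0.70 on the log2 scale in wild type (SE 0.30, edgeR adjusted p 0.0963) and -1.46 in Cdkn1b-null ovaries (SE 0.39, adjusted p 0.0311). Of the 7 germ cell markers tested, 3 rose and 1 fell in wild type, and 1 rose and 2 fell in Cdkn1b-null ovaries. Over all genes, 2748 of 16603 tested were called higher and 2902 lower in wild type. In Cdkn1b-null ovaries 2619 of 16598 were called higher and 2399 lower. Tex15, needed for meiotic recombination, rose from 31.6 ± 3.33 to 246 ± 104 CPM in wild type (n = 4 each; edgeR adjusted p 4.70e-05). Of the 10 meiotic entry genes, 6 rose and 2 fell in wild type, with Sycp3 at 12.4 ± 0.767 CPM at E13.5 and 388 ± 166 CPM at E18.5. In Cdkn1b-null ovaries 1 rose and 3 fell with replicate 3 of E13.5, whose meiotic genes stood apart, and 4 rose and 1 fell without it. With the replicate number as a block none rose and 1 fell. The Dazl call in Cdkn1b-null ovaries was lost with 4 of the 7 libraries left out in turn (edgeR adjusted p up to 0.0812), while the same 9 of the 10 genes fell without replicate 3 of E13.5.

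The spread of Dppa3 at E18.5 was set beside oocyte genes of the same libraries. Nobox, a factor of primordial oocytes picked after its values were seen, was highest in wild-type replicate 2 at 41.5 CPM and lowest in Cdkn1b-null replicate 1 at 2.88 CPM, the libraries where Dppa3 was also highest and lowest. Of the other listed oocyte genes, Figla, Lhx8, Sohlh1 and Zp2 shared both extremes and the rest did not. Gdf9 was highest in wild-type replicate 3 (7.96 CPM) and lowest in Cdkn1b-null replicate 3 (4.35 CPM). Nlrp5 was highest in Cdkn1b-null replicate 3 (3.26 CPM). The 13 oocyte genes summed to 68.9 to 278 CPM in wild-type and 53.0 to 161 CPM in Cdkn1b-null ovaries. In wild-type replicate 2 Dppa4 was also the highest of its group, at 7.62 CPM, while Nanog and Tdh were the lowest of theirs, at 0.358 and 1.18 CPM. The part of oocyte stage or number in these levels was not tested.

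At E18.5 only Nanog, Tdh, Dppa3 and Dppa4 had enough counts to be tested between genotypes, and none of the 4 was called, where 4.99% of 16322 genes were (814 genes, and 246 to 1372 with 1 library left out; edgeR quasi-likelihood, adjusted p from 0.248 to 0.879; DESeq2 called none, and none had an unadjusted p under 0.05). Nanog had a log2 fold change of 0.87 (95% interval -0.16 to 1.90), and its Cdkn1b-null mean of 1.09 CPM rested on the 2.12 CPM of replicate 1. Dppa4 had -0.68 (-1.39 to 0.04). For Dppa3 the interval, -3.07 to 2.32, spans large changes in either direction, and the estimate changed sign without wild-type replicate 2 (0.94) or Cdkn1b-null replicate 1 (0.0084).

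After birth the set split further. At PND8 the group means of Pou5f1 and Dppa3 were above 1 CPM and those of the other 8 genes were not, in either genotype. Pou5f1 rose from E18.5 to 12.2, 4.84, 4.31 and 19.2 CPM in wild-type replicates 1 to 4 and to 5.61, 13.8 and 7.97 CPM in Cdkn1b-null replicates 1, 3 and 4. Its lowest PND8 library lay above its highest E18.5 library in both genotypes. The log2 fold change was 3.62 in wild type (SE 0.68, edgeR adjusted p 0.000642) and 4.36 in Cdkn1b-null ovaries (SE 0.40, adjusted p 4.09e-06). The level reached 16.1% and 15.1% of the E13.5 mean.

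Of the 5 genes tested over this interval, 1 rose and 3 fell in each genotype. Over all genes tested in this step, 74.6% were called in wild type (37.6% higher, 36.9% lower) and 77.4% in Cdkn1b-null ovaries (38.9% higher, 38.5% lower), so the count is near the background. Pou5f1 passed the filter on low counts through PND8 (3 to 32 counts a library at E18.5), and Dppa4 and Tdh passed it through E18.5 (0 to 12 counts at PND8), so their directions were partly fixed by the filter. Nanog had 7 to 53 counts a library at E18.5 and 5 to 14 at PND8, so its direction may also have been partly fixed. Dppa4 fell from 5.34 to 0.138 ± 0.130 CPM in wild type (n = 4; log2 fold change -5.29, SE 0.57, edgeR adjusted p 1.22e-05) and from 3.37 to 0.174 ± 0.0845 CPM in Cdkn1b-null ovaries (n = 3; -4.30, SE 0.51, adjusted p 2.80e-05). Tdh fell with log2 fold changes of -4.16 in wild type (SE 0.71, edgeR adjusted p 0.000352) and -3.43 in Cdkn1b-null ovaries (SE 0.85, adjusted p 0.00400). Nanog fell by 1.35 in wild type (SE 0.46, edgeR adjusted p 0.0199), where the groups overlapped, and by 2.04 in Cdkn1b-null ovaries (SE 0.56, adjusted p 0.00698). The wild-type call for Nanog was lost without wild-type replicate 3 of E18.5 (adjusted p 0.0773) and without replicate 2 or 3 of PND8 (0.0667 and 0.0643). This comparison and the one before it share the E18.5 libraries. All 7 germ cell markers tested were also called lower from E18.5 to PND8 in each genotype. Their median log2 fold change was -3.36 in wild type and -3.34 in Cdkn1b-null ovaries. The part of germ cell number or RNA in the falls of Dppa4, Tdh and Nanog was not tested.

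Dppa3 measured 41.7, 22.2, 16.1 and 73.5 CPM in wild-type replicates 1 to 4 of PND8 and 24.1, 59.6 and 33.8 CPM in Cdkn1b-null replicates 1, 3 and 4. It was not called against E18.5 (log2 fold change -0.61, SE 0.83, edgeR adjusted p 0.521 in wild type; -0.19, SE 0.90, adjusted p 0.859 in Cdkn1b-null ovaries). Pou5f1, Dppa3, Dppa2 and Tfap2c had their 3 highest PND8 levels in the same libraries: wild-type replicates 1 and 4 and Cdkn1b-null replicate 3. Zp2 and Zp3, which encode zona pellucida proteins of the growing oocyte, were also highest in these 3, with Zp2 at 190, 211 and 307 CPM against 42.8 to 178 CPM in the other 4. Gdf9 was different, with 81.8 CPM in Cdkn1b-null replicate 4 and 77.4 CPM in wild-type replicate 1, and Zp1, Bmp15 and Oosp1 (named after their values were seen) also had Cdkn1b-null replicate 4 among their 3 highest. Dppa2 was 0.815, 0.777 and 2.02 CPM there and 0.0809 to 0.578 CPM in the others. Tfap2c was 0.849, 0.803 and 0.939 CPM there and 0.0270 to 0.482 CPM in the others.

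**Figure D5:**
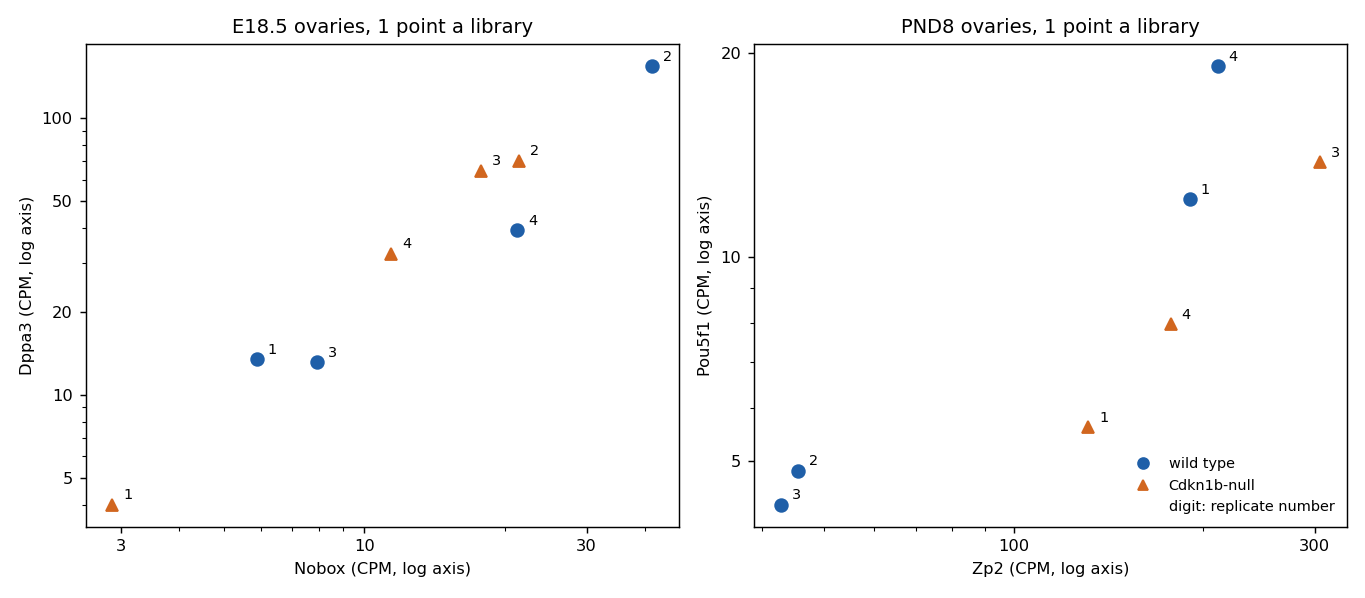
CPM of Dppa3 against Nobox in the 8 libraries of E18.5 (left) and of Pou5f1 against Zp2 in the 7 libraries of PND8 (right), on log axes, with the replicate number beside each point. Dppa3 and Nobox are both highest in wild-type replicate 2 and both lowest in Cdkn1b-null replicate 1, and the 3 libraries with the highest Zp2 are those with the highest Pou5f1. Nobox was picked after its values were seen, and some oocyte genes not drawn, Gdf9 among them, are highest in other libraries.

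Between genotypes at PND8, 6 of the 10 genes were tested and none was called, where 0.349% of 17785 genes were (62 genes, and 0 to 147 with 1 library left out; edgeR quasi-likelihood, adjusted p from 0.622 to 0.997; DESeq2 called none, and none had an unadjusted p under 0.05). The log2 fold change was -0.17 for Pou5f1 (95% interval -1.59 to 1.25) and 0.01 for Dppa3 (-1.41 to 1.43). The other 4 tested genes had group means under 1 CPM.

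At 12wk the set was low in bulk ovary RNA. Its summed mean was 3.38 CPM in wild-type and 1.42 CPM in Cdkn1b-null ovaries, against 50.2 and 50.7 CPM at PND8. By library the sum was 1.15, 1.47, 8.36 and 2.55 CPM in wild type and 1.21, 1.23 and 1.80 CPM in Cdkn1b-null ovaries, so that wild-type replicate 3 alone lay far above the rest. Pou5f1 measured 0.0574, 0.0641, 1.93 and 0.378 CPM in wild-type replicates 1 to 4 and 0.0867, 0.0535 and 0.139 CPM in Cdkn1b-null replicates 1, 3 and 4. Dppa3 measured 0.172, 0.545, 4.24 and 0.787 CPM in wild type and 0.173, 0.1604 and 0.312 CPM in Cdkn1b-null ovaries. Wild-type replicate 3 was the highest library for both. Its 13 oocyte genes summed to 115 CPM, the highest of 12wk, where the wild-type median was 25.9 CPM and the Cdkn1b-null libraries lay between 5.07 and 8.63 CPM. Gdf9, an oocyte growth factor, was 34.3 CPM in it and 1.91 to 8.18 CPM in the other 6 libraries of 12wk. The part of oocyte number in the Pou5f1 and Dppa3 levels was not tested.

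From PND8 to 12wk, 2 of the 3 genes tested in wild type fell, and 2 of 5 in Cdkn1b-null ovaries, where 30.5% and 29.1% of all genes tested were called, 14.3% lower in each genotype. These were Pou5f1 (log2 fold change -4.00, SE 1.01, edgeR adjusted p 0.0172 in wild type; -6.51, SE 0.56, adjusted p 0.000955 in Cdkn1b-null ovaries) and Dppa3 (-4.69, SE 0.89, adjusted p 0.00503; -7.41, SE 0.51, adjusted p 0.000831). Both passed the filter on low counts through PND8 (2 to 9 counts in the Cdkn1b-null libraries of 12wk), so a fall was the direction open to them. With no filter on low counts the wild-type Pou5f1 call was lost (edgeR adjusted p 0.0734). Over the same step 10 of 13 oocyte genes were called lower in wild type and 13 of 13 in Cdkn1b-null ovaries, and none higher. Their median log2 fold changes were -3.75 and -7.03. The part of oocyte number in the falls of Pou5f1 and Dppa3 was not tested. Sox2 had 0 counts in all 7 libraries of 12wk. Nanog lay between 0.0321 and 0.697 CPM and Utf1 between 0.0346 and 0.488 CPM, each with a library of 1 count.

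Genotype was not called for any of the 4 genes tested at 12wk, where 0.0115% of 17396 genes were (edgeR quasi-likelihood, adjusted p from 0.499 to 0.993; DESeq2 called none). Dppa3 had an unadjusted p under 0.05 (edgeR p 0.0409, adjusted p 0.499), with a log2 fold change of -2.70 (95% interval -5.25 to -0.14) and overlapping groups. Without wild-type replicate 3 it was -1.21 (edgeR adjusted p 0.667). Pou5f1 was too low to be tested.

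The changes with age were then compared between genotypes in a fit over all 29 libraries. Prdm14 and Sox2, with 0 to 2 counts a library after E13.5, gave no usable estimate. None of the other 8 genes was called in its step from E13.5 to E18.5, from E18.5 to PND8 or from PND8 to 12wk (edgeR quasi-likelihood, lowest adjusted p 0.575, 0.745 and 0.704), and DESeq2 called none. Over all 20359 genes tested, 0.653%, 0.329% and 0.0246% were called. None of the 8 had an unadjusted p under 0.05 in any step. The E13.5 level let all 8 into this fit, whatever their later counts. After E18.5 Tdh had 0 to 9 counts a library, Dppa4 0 to 12 and Utf1 1 to 17. At E18.5 Tfap2c had 1 to 7 counts a library and Utf1 3 to 11. Steps that rest on such counts could hardly show a genotype difference, so the lack of a call says little there. For Nanog the first step was 1.21 higher on the log2 scale in Cdkn1b-null ovaries (SE 0.74, 95% interval -0.31 to 2.72, edgeR adjusted p 0.575). For Pou5f1 the last step was lower by -2.53 (SE 1.28, interval -5.17 to 0.12, adjusted p 0.704).

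Of 25 other pluripotency network genes, 23 were tested between E13.5 and E18.5, where 17.5% of all genes tested were called lower in wild type and 14.5% in Cdkn1b-null ovaries. Called higher over all genes were 2748 of 16603 in wild type and 2619 of 16598 in Cdkn1b-null ovaries. In wild type 12 fell and none rose, and in Cdkn1b-null ovaries 14 fell and 2 rose, or 13 and 1 with the replicate block (edgeR quasi-likelihood, adjusted p under 0.05). Dppa5a, an RNA-binding protein of pluripotent cells, fell from 226 ± 36.5 to 5.12 ± 2.49 CPM in wild type (n = 4 each; log2 fold change -5.48, SE 0.34, edgeR adjusted p 8.79e-06). Rif1, a replication-timing factor, measured 78.9 ± 23.9 and 82.5 ± 24.5 CPM in wild type (edgeR adjusted p 0.899) and rose in Cdkn1b-null ovaries from 61.6 ± 2.85 to 81.9 ± 15.5 CPM (adjusted p 0.0478). The Rif1 call was lost with 6 of the 7 libraries left out in turn (edgeR adjusted p up to 0.118) and with the replicate block (adjusted p 0.123). Tbx3, a T-box factor, measured 82.4 ± 23.1 and 80.0 ± 27.4 CPM in wild type (edgeR adjusted p 0.895). Nr5a2, an orphan nuclear receptor that can act on Pou5f1 and that is also made by granulosa cells, was 4.48 ± 1.18 CPM at E13.5 and 501 ± 39.3 CPM at PND8 in wild type.

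Of 12 other primordial germ cell genes, 11 were tested between E13.5 and E18.5. Over all genes tested in this step, 17.5% were called lower in wild type and 14.5% in Cdkn1b-null ovaries. Called higher were 2748 of 16603 genes in wild type and 2619 of 16598 in Cdkn1b-null ovaries. In wild type 7 fell and none rose, and in Cdkn1b-null ovaries 6 fell and 1 rose, or 6 and 0 with the replicate block. Kit, the receptor that germ cells need to survive and migrate, measured 101 ± 8.10 and 78.3 ± 11.8 CPM in wild type (n = 4 each; log2 fold change -0.37, SE 0.13, edgeR adjusted p 0.0512). Tet1, which oxidises methylated cytosine, fell by 0.62 on the log2 scale (SE 0.16, adjusted p 0.0133). Ifitm1 and Ifitm3, membrane proteins of early germ cells, measured 284 ± 33.9 and 64.1 ± 5.96 CPM at E13.5 and had adjusted p of 0.0523 and 0.816.

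Among 6 partners of the 10 genes, 5 fell in wild type between E13.5 and E18.5 (17.5% of all genes tested) and 2 fell in Cdkn1b-null ovaries (14.5% of all genes tested). The change over this step was not called different between genotypes for any of the 6, where 0.653% of 20359 genes were. At E18.5, 2 of the 6 were higher in Cdkn1b-null ovaries, where 3.32% of all genes tested were called higher. These were Uhrf1, which guides maintenance methylation and is bound by the Dppa3 protein, at 49.6 ± 8.97 CPM in wild type and 103 ± 13.3 CPM in Cdkn1b-null ovaries (n = 4 each; log2 fold change 1.05, SE 0.14, edgeR adjusted p 0.00286), and Dnmt1, the maintenance methyltransferase, at 63.4 ± 11.6 and 120 ± 18.1 CPM (0.91, SE 0.15, adjusted p 0.00696). Groups did not overlap for either. Cbfa2t2, a co-repressor that works with PRDM14, fell from 184 ± 11.1 to 134 ± 14.5 CPM in wild type (edgeR adjusted p 0.0102) while Prdm14 itself went to 0 counts. Ehmt1, a histone H3 methyltransferase, fell from 138 ± 16.6 to 101 ± 12.2 CPM (adjusted p 0.0199).

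Markers of other cells were read in the same libraries. The 4 male germ cell genes summed to 2.07 to 5.18 CPM at E13.5 and the 5 Sertoli cell genes to 30.1 to 72.7 CPM. Over all genes tested from E13.5 to E18.5 in wild type, 2748 of 16603 were called higher and 2902 lower. Between E13.5 and E18.5 in wild type, 1 of 2 tested male germ cell genes rose, 2 of 5 Sertoli cell genes rose and 2 fell, 1 of 2 keratinocyte genes fell, 5 of 8 pregranulosa cell genes rose, 3 of 7 erythroid genes fell and no Y-linked gene could be tested. The 13 oocyte genes rose for 5 and fell for 1 of 7 tested. Their part in the fall of the 10 genes was not tested.

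Positions here are those of the GENCODE M21 annotation on GRCm38, and the build the submitters used is not given in the sources used here. Dppa3 (chromosome 6, 122626410 to 122630272) and Nanog (chromosome 6, 122707489 to 122714633) lie 77216 bases apart with no other coding gene between them. Gdf3, a TGF-beta family ligand 16322 bases before Dppa3, measured 9.91 CPM in wild-type ovaries at E13.5 and 0.633 CPM at E18.5. Slc2a3, a glucose transporter 13175 bases after Nanog, measured 72.3 and 22.2 CPM. Gdf3 was at 0.0152 CPM at PND8, where Dppa3 was at 38.4 CPM. Pou5f1 (chromosome 17, 35506018 to 35510772) lies 1961 bases from Tcf19, which measured 26.6, 20.9, 46.1 and 19.7 CPM in wild type at the 4 ages. Dppa4 and Dppa2 lie on chromosome 16 at 48283733 to 48294237 and 48303908 to 48319723.

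Of the other genes of the set, Utf1 is on chromosome 7 at 139943789 to 139945112, Tdh on chromosome 14 at 63492347 to 63509092, Prdm14 on chromosome 1 at 13113457 to 13127163, Tfap2c on chromosome 2 at 172549593 to 172558622 and Sox2 on chromosome 3 at 34650405 to 34652461. Sox2 lies inside Sox2ot, which is on the same strand, and Pou5f1 and Tdh overlap antisense genes. The sources used here do not state whether counting used strand, so reads of overlapping genes may not be told apart. Dppa3 and Nanog have annotated pseudogene copies, the highest of which, Dppa3-ps, reached 13.5 counts in a library.

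Over the 8 group means of log2(CPM + 1), the genes most like Nanog among 14183 were Myl7, Amn, Smco3, Gstm3 and Dmrt2 (Pearson r from 0.998 to 0.997). Among the other genes of the set, Tdh (0.991) and Utf1 (0.990) were nearest to Nanog, and Dppa3 (0.666) was farthest. The genes most like Pou5f1 were B4galnt4, Hmga2, Ap3b2, Hapln3 and Tcf3 (0.992 to 0.987). Their means were higher at PND8 than at E18.5, which follows from choosing them by likeness to Pou5f1. The genes most like Dppa3 were Trim71, Rab38, Tada2a, Kcna6 and Dnah1 (0.993 to 0.986). These are descriptions over 8 points, and each group mean is shared by all genes of its libraries. Trim71, a developmental regulator of RNA, measured 30.5, 13.6, 6.80 and 0.268 CPM in wild type from E13.5 to 12wk.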

How the data were processed

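Total RNA of mouse ovaries from wild-type and Cdkn1b-null mice was sequenced in 29 libraries, grouped by the labels into 8 groups of age and genotype. The authors deposited 1 table of RSEM expected counts (estimated counts that need not be whole) for 51912 gene identifiers, of which 15157 had no count and 51633 had a symbol. The submitters' processing notes name Trim Galore, FastQC 0.11.5, STAR 2.5.2 and RSEM 1.3.0. Build and annotation are not given in the sources used here. Of the deposited values above 0, 31.4% were not whole, and counts were rounded before tests.

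Differences were tested with edgeR 4.0.16 in R 4.3.3 (TMM, quasi-likelihood fit with robust estimation, a minimum count of 10 and a total of 15 in the filter on low counts), each comparison on its own groups and genotype by age on all groups. P-values were adjusted over all genes tested by Benjamini-Hochberg with a threshold of 0.05, and the code was tested on simulated data. Alternatives were DESeq2 1.42.0 with its own size factors, RLE scaling, no filter, the replicate number as a block, all groups in 1 fit, CPM from plain totals or without haemoglobin genes, and leaving out each library. Totals were 14.1 to 48.2 M counts, and 39 pairs of replicates all differed by more than counting noise.

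Members and lists were chosen with earlier results of these data known. All 10 genes were named, and of each other list up to 4 genes with the highest mean CPM, with Cdkn1b, annotated neighbours and, for Nanog, Pou5f1 and Dppa3, the 5 genes of highest Pearson r (pseudocount of 1, group mean of at least 2 CPM). Stra8, Nobox, Sox10, Figla, Lhx8, Sohlh1, Zp1, Bmp15 and Oosp1 were chosen after their values were seen. Of 8 germ cell markers 7 matched. The summed level of the glial list is not reported here. The labels do not say that equal replicate numbers mean paired samples. Deviations of same-numbered samples from their group means correlated weakly. The highest mean correlation was 0.154 (0.104 to 0.206), for E18.5 against E13.5 in Cdkn1b-null ovaries, and the next was 0.098, between genotypes at E18.5. Correlations this low do not establish pairing. The block left 9 of the 10 genes called for E18.5 against E13.5 in Cdkn1b-null ovaries.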

Additional observations from a re-analysis of the deposited data

Results flagged for a closer look

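Of 41 sets examined, each a gene in a group of 4 libraries, 3 held a library far from the others by Dixon's criterion, and chance gives about 1 in 20. The sets share libraries and are not independent. At E18.5, Nanog was 2.12 CPM in Cdkn1b-null replicate 1 against 0.709, 0.754 and 0.784 CPM in the other libraries of its group. At 12wk, wild-type replicate 3 was highest for 2 genes: Pou5f1 was 1.93 CPM in it against 0.0574, 0.0641 and 0.378 CPM, and Dppa3 was 4.24 CPM against 0.172, 0.545 and 0.787 CPM. The oocyte genes of that library summed to 115 CPM, and their part in these values was not tested.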

How the results depend on the processing

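Among the recomputed counts of called genes, 215 stayed within 1.5 times the reported count and 1 did not. This was 12wk against PND8 in wild type, where no filter on low counts left 1 gene called in place of 2. Leaving out libraries gave 0 called in every genotype and genotype by age comparison, 9 to 10 for E18.5 against E13.5 in each genotype, 3 to 4 (wild type) and 4 to 5 (Cdkn1b-null) for PND8 against E18.5, and 2 (wild type) and 2 to 3 (Cdkn1b-null) for 12wk against PND8. The replicate block changed no call of the 10 genes, but with it the Dppa3 log2 fold change turned to -0.0686 between genotypes at E13.5, to -0.0959 at PND8, and from E18.5 to PND8 to 0.0522 in wild type and 0.635 in Cdkn1b-null ovaries, none of them called. Leaving out libraries turned the sign of estimates that were not called: between genotypes at E13.5 Pou5f1 (-0.288 to 0.151), Dppa4 (-0.561 to 0.139), Dppa3 (-0.364 to 0.433) and Tdh (-0.325 to 0.0403), at E18.5 Dppa3 (-0.712 to 0.942), at PND8 Pou5f1 (-0.599 to 0.349) and Dppa3 (-0.429 to 0.544), and from E18.5 to PND8 Dppa3 (-1.08 to 0.744 in wild type, -0.615 to 0.149 in Cdkn1b-null ovaries). The cause was not tested. Without the filter, wild-type Nanog from E18.5 to PND8 had an edgeR adjusted p of 0.0653. DESeq2 called 71, 1676, 741 and 298 genes over all genes between genotypes at the 4 ages in order, against 1, 814, 62 and 2 by edgeR, and leaving out 1 library moved the edgeR counts to 0 to 1, 246 to 1372, 0 to 147 and 0 to 3. Levels under the floor cannot be told from 0 at this depth.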
